A study of Mus musculus with 16 samples.

Results

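Of 48866 promoters on chromosomes 1 to 19 with a CpG methylation value in all 4 induced pluripotent stem cell (iPSC) lines, 1062 separated the lines by their cell of origin. A promoter here is the region within 1000 bp of the transcription start site (TSS) of a gene, and its value is the fraction of CpG sites read as methylated, from 0 to 1. The mean of each line over all its promoters was subtracted first. Promoters were then chosen by these centred values: the lowest of the lines derived from tail tip fibroblasts (TTF) had to exceed the highest of the lines derived from kidney proximal tubule cells (PTC) by at least 0.2, or the reverse. The methylation values of the 1062 members are therefore a description, with no test. The whole table lists 55471 genes, of which 51155 lie on chromosomes 1 to 19. In 584 members both TTF lines were higher, and in 478 both PTC lines were higher.

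The series compares PTC11 and PTC12 with TTF1 and TTF4, with nanopore CpG methylation and H3K4me3 and H3K36me3 ChIP-seq in each, and H3K27me3 in 3 of the 4 lines. All lines came from littermates heterozygous for 4 transgenes named OKMS-250, rtTAROSA (neo-in), tdTomato and SLC34a1-GCE, of which the first carries Oct4, Klf4, c-Myc and Sox2 under doxycycline control. The mice were given tamoxifen from 6 weeks of age and euthanized at 8 to 10 weeks. In PTC the Slc34a1 promoter drove Cre, and the cells were sorted for GFP and tdTomato; TTF received Cre from electroporated plasmids instead. Colonies were picked and expanded as clonal lines, and doxycycline was withdrawn in steps. Each line is thus 1 clone, sampled at early passage and with 1 methylation library. The origin of the cells and the route by which Cre was delivered therefore cannot be told apart, and neither can origin and clone with 2 lines each. Which line came from which mouse is not given in the sources used here, though the study describes its methylation values as averaged over 2 independent animals. Markers of pluripotent cells had low median promoter methylation in each line (medians over 12 genes from 0.0278 in PTC11 to 0.224 in TTF4). Of these 12, 9 to 11 had an H3K4me3 value. Exceptions were Zfp42 and Dppa4, at 0.803 and 0.759 in TTF4 without an H3K4me3 value there. Esrrb had 0.720 in PTC12 and 0.747 in TTF4, with no H3K4me3 value in any line. Medians over 10 fibroblast markers ran from 0.244 in PTC11 to 0.488 in TTF4, and 2 to 6 had an H3K4me3 value. Over 10 proximal tubule markers the medians ran from 0.535 to 0.871. None of the pluripotency, fibroblast or proximal tubule markers was a member.

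CpG methylation is the addition of a methyl group to cytosine next to guanine. Promoters rich in CpG are usually free of it whether or not their gene is active, while CpG-poor promoters are methylated in most cells that do not use them. Methylation is largely erased and rewritten when a somatic cell is reprogrammed, and iPSC clones are known to differ from each other where the rewriting is incomplete or variable. The question put to these lines is whether such differences follow the cell of origin.

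The promoters below are examples in sequence and not typical members, since most members are not protein coding and most have fewer than 20 CpGs. Shown per direction are the 3 protein coding members with the widest gap among those with at least 20 CpGs. Their RefSeq start also had to lie within 100 bases of the start in the table. Each is the RefSeq promoter on GRCm38.p6, from 250 bases before to 50 bases after the start, read 5′ to 3′ with every CpG in capitals. The first 3 were higher in TTF lines and the last 3 in PTC lines.
F2rl2 (chr13:95696670-95696969, plus strand): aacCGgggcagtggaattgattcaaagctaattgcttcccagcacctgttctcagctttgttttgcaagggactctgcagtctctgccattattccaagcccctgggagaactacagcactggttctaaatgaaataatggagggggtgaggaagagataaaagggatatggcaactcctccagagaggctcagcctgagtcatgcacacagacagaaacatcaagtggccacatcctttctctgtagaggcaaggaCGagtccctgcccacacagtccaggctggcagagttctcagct
Slc50a1 (chr3:89270521-89270820, minus strand): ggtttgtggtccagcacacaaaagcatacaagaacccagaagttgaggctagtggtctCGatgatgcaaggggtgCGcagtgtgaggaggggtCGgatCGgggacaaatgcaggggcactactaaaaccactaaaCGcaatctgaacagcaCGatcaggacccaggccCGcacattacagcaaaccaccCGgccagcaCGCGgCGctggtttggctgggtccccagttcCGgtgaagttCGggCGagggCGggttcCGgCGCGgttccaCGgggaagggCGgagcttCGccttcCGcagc
Zfp879 (chr11:50841503-50841802, minus strand): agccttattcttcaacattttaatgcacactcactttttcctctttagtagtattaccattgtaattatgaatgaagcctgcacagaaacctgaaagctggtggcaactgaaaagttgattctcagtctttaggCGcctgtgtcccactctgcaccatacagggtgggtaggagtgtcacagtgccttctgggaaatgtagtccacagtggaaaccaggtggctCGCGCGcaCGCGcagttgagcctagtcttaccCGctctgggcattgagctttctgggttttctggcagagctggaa
Gm4027 (chr12:87618659-87618958, plus strand): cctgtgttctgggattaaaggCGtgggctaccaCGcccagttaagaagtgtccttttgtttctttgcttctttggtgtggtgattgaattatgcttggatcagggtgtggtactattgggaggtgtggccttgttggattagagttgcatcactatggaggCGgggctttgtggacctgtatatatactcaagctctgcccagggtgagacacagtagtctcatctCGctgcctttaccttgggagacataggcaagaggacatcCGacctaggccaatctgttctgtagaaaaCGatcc
Slc15a5 (chr6:138079867-138080166, minus strand): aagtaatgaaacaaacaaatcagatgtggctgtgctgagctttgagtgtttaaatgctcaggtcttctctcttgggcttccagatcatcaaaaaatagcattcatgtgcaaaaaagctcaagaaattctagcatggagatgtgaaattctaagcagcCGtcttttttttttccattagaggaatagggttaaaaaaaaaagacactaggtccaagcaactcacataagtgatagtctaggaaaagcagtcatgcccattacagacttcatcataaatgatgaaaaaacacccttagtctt
Gm6034 (chr17:36042711-36043010, plus strand): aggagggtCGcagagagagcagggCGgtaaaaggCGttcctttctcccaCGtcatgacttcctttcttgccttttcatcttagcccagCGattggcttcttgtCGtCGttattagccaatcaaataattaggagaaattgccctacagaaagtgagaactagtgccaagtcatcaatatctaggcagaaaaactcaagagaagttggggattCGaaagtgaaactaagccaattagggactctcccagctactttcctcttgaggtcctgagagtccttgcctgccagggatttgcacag
These windows hold 2, 22, 7, 6, 1 and 8 CpGs, in that order, against a median of 7 (quartiles 3 and 20) over 32817 RefSeq promoters of 300 bases. Slc50a1 is the CpG-rich one of them, at a level that 23.1% of all promoters reach, whereas 94.6% have at least as many CpGs as Slc15a5.

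Pairing the lines by origin and pairing them across origins gave like numbers of separated promoters. The 1062 members were 2.17% of the promoters tested, 1.20% higher in TTF and 0.978% higher in PTC. When PTC11 and TTF1 were set against PTC12 and TTF4, the same rule found 1356 promoters, or 2.77%. Of these, 976 (2.00%) were higher in PTC12 and TTF4 and 380 (0.778%) were higher in PTC11 and TTF1. The remaining pairing, PTC11 and TTF4 against PTC12 and TTF1, gave 978 promoters, or 2.00%, with 439 (0.898%) higher in PTC12 and TTF1 and 539 (1.10%) higher in PTC11 and TTF4. The count by origin thus lay between those of the other 2 pairings. It did so too with the median subtracted (1104 by origin beside 1704 and 1011) and on fractions as deposited (1182 beside 6170 and 760), while after quantile normalization it was the highest by a small margin (1186 beside 1161 and 989).

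**Figure D1:**
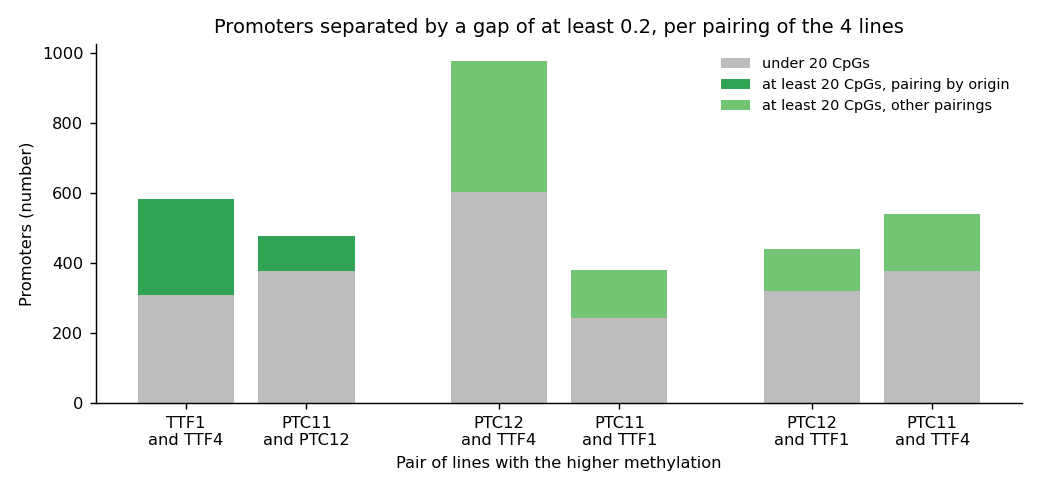
Number of promoters that separate the 4 lines into pairs by at least 0.2 on the centred fraction, for the pairing by origin and the other 2 pairings, each in both directions; the grey part of a bar holds promoters with under 20 CpGs within 1000 bp of the TSS. The bars by origin, 584 and 478, lie within the range of the others, from 380 to 976.

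Which direction held more members depended on how the lines were aligned. The lines differed in overall level: their mean over all promoters listed was 0.372 in PTC11 and 0.482 in PTC12 against 0.379 in TTF1 and 0.649 in TTF4, so TTF4 stood apart from the other 3. With the mean subtracted, 55.0% of members were higher in TTF. On fractions as deposited 1094 promoters were higher in TTF and 88 in PTC, a share of 92.6%. With the median subtracted in place of the mean the order turned, with 359 higher in TTF and 745 higher in PTC, a share of 32.5%. It turned too after quantile normalization, with 534 and 652. In the pairing by origin the number in both directions together changed less, to 1182 as deposited and 1104 with the median. Of the 584 members higher in TTF, 342 met the same gap on fractions as deposited and 282 with the median subtracted; of the 478 higher in PTC, 75 and 380 did.

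In the members higher in TTF the deposited fraction had medians of 0.271 in PTC11 and 0.372 in PTC12 but 0.632 in TTF1 and 0.899 in TTF4. The middle of the distribution ran from 0.168 to 0.354 for PTC11 and from 0.269 to 0.463 for PTC12 (quartiles), beside 0.523 to 0.734 for TTF1 and 0.840 to 0.961 for TTF4. All 584 had both TTF lines above both PTC lines before any subtraction, which the gap of 0.2 and the line means fix in advance. These promoters were lightly to moderately methylated in PTC iPSC and mostly methylated in TTF4.

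In the members higher in PTC the medians were 0.689 in PTC11 and 0.811 in PTC12 against 0.314 in TTF1 and 0.625 in TTF4. Here TTF1 was the low line on the deposited scale, and TTF4 was low in large part relative to its own high mean, and in 325 of the 478 the deposited fractions did not overlap between origins. In the remaining members of this direction a TTF line, as deposited, reached or passed a PTC line.

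**Figure D2:**
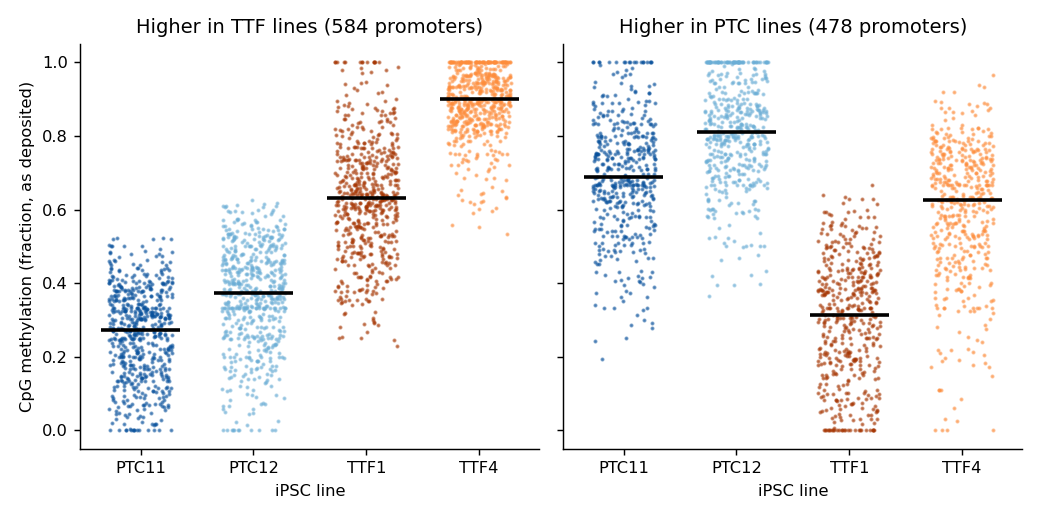
Deposited methylation fraction of every member (points) in each of the 4 lines, for the 584 members higher in TTF (left) and the 478 higher in PTC (right); black bars are medians. On the left the medians rise from 0.271 in PTC11 to 0.899 in TTF4, and on the right TTF4 has a median of 0.625, close to that of PTC11 at 0.689.

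Within an origin the lines mostly lay closer together than over all promoters, which the rule favours but does not require. The centred fractions of TTF1 and TTF4 differed by a median of 0.0804 in members higher in TTF and 0.0917 in members higher in PTC, against 0.162 over all promoters tested. For PTC11 and PTC12 the medians were 0.0677 and 0.0833, against 0.112. TTF4 was above TTF1 on the centred scale in 47.3% of members higher in TTF and 54.2% of members higher in PTC, so that the order of the TTF lines was near even.

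The gap had a median of 0.244 in members higher in TTF and 0.249 in those higher in PTC, and its highest values were 0.543 and 0.670. The widest was at Gm43829, a gene of the TEC class (transcript evidence still to be checked by experiment) with 5 CpGs, where the fraction was 0.663 in PTC11 and 0.788 in PTC12 against 0 in TTF1 and 0.219 in TTF4. Just inside the threshold lay the snRNA gene Gm25163 (0.249 in PTC11 and 0.111 in PTC12 against 0.456 in TTF1 and 0.904 in TTF4) and the processed pseudogenes Gm6091 and Gm13349 in the TTF direction. In the PTC direction they were the long intergenic RNA genes Gm36539 and Gm10280 and the pseudogene Gm18070. Just outside lay Gm26621, Gm49517 and Mir671 in the TTF direction and Gm32618, Epx and Gm44552 in the PTC direction. Mir671 had 0.338 in PTC11 and 0.405 in PTC12 against 0.596 in TTF1 and 0.815 in TTF4, values like those of many members, and the eosinophil peroxidase gene Epx had 0.745 in PTC11 and 0.820 in PTC12 against 0.432 in TTF1 and 0.787 in TTF4.

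Members were poor in CpG. The reference genome holds a median of 15 CpGs within 1000 bp of their TSS (quartiles 9 and 25), against 27 (15 and 66) for all promoters tested, and 64.6% had fewer than 20 CpGs against 36.2%. The fraction of a promoter with few CpGs rests on few sites, and at least 1 line was at exactly 0 or 1 in 19.9% of members against 9.17% of all promoters. The number of reads behind a value is unknown, so that no interval can be given for a single fraction. The other 2 pairings chose promoters of the same kind, with medians from 13 to 15 CpGs.

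The share that separated by origin fell from 5.32% of promoters with 0 to 9 CpGs to 3.18% with 10 to 19, 2.06% with 20 to 39, 1.08% with 40 to 79 and 0.113% with 80 or more. The pairing of PTC11 and TTF1 went from 6.68% to 0.389% over the same classes, and the remaining pairing from 5.54% to 0.0717%. The decline with CpG number was thus seen in each of the 3 pairings.

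**Figure D3:**
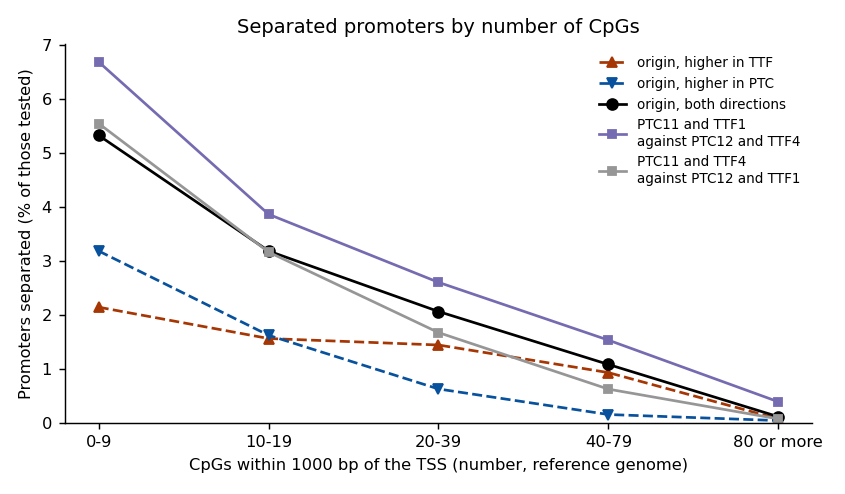
Percent of tested promoters that separate by at least 0.2, by the number of CpGs within 1000 bp of the TSS in the reference genome, for the pairing by origin (black; dashed lines give its 2 directions) and the other 2 pairings. Every line falls with CpG number, from 5.32% to 0.113% by origin, and from 20 CpGs on the dashed line for TTF lies above that for PTC.

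Direction and CpG number went together. Members higher in TTF had a median of 18 CpGs and members higher in PTC a median of 12. Of promoters with at least 20 CpGs, 275 were higher in TTF and 101 in PTC; with fewer than 20, 309 were higher in TTF and 377 in PTC, an order that turned to 717 and 71 on fractions as deposited. This too moved with the alignment of the lines: with the median subtracted, 180 and 176 of the CpG-richer promoters were higher in TTF and in PTC. One of the other pairings was also uneven, with 373 CpG-richer promoters higher in PTC12 and TTF4 against 138 higher in PTC11 and TTF1, and less so in the remaining one, with 120 higher in PTC12 and TTF1 and 162 in PTC11 and TTF4. The G and C content of both directions was a little low, with medians of 44.3% and 41.5% against 46.7% over all promoters, and the share of repeat-masked bases was 23% and 22.8% against 17.8%.

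Genes without a coding product made up most of the set. Of the members 264 were protein coding, or 24.9% against 41.0% of all promoters tested. The share of a class that separated by origin was 1.32% for protein coding genes, 2.32% for long intergenic RNAs, 3.08% for processed pseudogenes and 5.69% for unprocessed pseudogenes, which had a median of 11 CpGs against 66 for protein coding genes. Segments of immunoglobulin and T cell receptor genes, which are methylated outside lymphocytes, reached 4.46%, with 7 higher in TTF and 20 in PTC, or 20 and 3 on fractions as deposited. Among promoters with under 20 CpGs the classes were closer, with 3.85% for protein coding genes, 4.08% for processed pseudogenes and 5.96% for unprocessed pseudogenes. The pairing of PTC11 and TTF1 gave 1.74%, 3.41% and 4.46% for protein coding genes, processed and unprocessed pseudogenes.

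Of 2876 antisense RNA genes tested 54 were members, or 1.88% beside 2.17% over all promoters. The other pairings held 67 (2.33%) and 40 (1.39%). Of the 54 members, 46 were higher in TTF and 8 in PTC, and with the median subtracted these counts were 26 and 15. Antisense genes had a median of 30 CpGs, higher than that of the pseudogenes.

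By chromosome the share of members ran from 1.34% of the promoters tested on chromosome 2 to 3.02% on chromosome 14. Members seldom lay side by side: with start sites within 1000 bp of each other taken as 1 locus, the members formed 570 and 468 loci.

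Protein coding members with at least 20 CpGs were mostly higher in TTF, 96 against 22, and with the median subtracted 68 against 38. The start in the table is the outermost one of a gene, and of the 20 named below 15 could be set beside RefSeq: 10 lay within 1000 bp of a RefSeq start and 5 did not, so that for Dgke, Pole4, Tmprss9, Glrx2 and Cacnb2 the window covers an alternative or distant start rather than the RefSeq promoter. The widest gap was at Pcdhga2 (chromosome 18, TSS at 37668953), a clustered protocadherin that helps neurons tell each other apart at the cell surface. Its fraction was 0.154 in PTC11 and 0.282 in PTC12 against 0.669 in TTF1 and 0.897 in TTF4, giving means of 0.218 ± 0.0899 for PTC and 0.783 ± 0.161 for TTF (SD, n = 2). Dgke, a diacylglycerol kinase, came next (chromosome 11, TSS at 89066850, 6.10 kb from the RefSeq start), with 0.150 in PTC11 and 0.256 in PTC12 against 0.809 in TTF1 and 0.843 in TTF4, or 0.203 ± 0.0749 against 0.826 ± 0.0240. Both genes had low fractions in each PTC line and high fractions in each TTF line.

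Pole4, an accessory subunit of DNA polymerase epsilon, had 0.221 in PTC11 and 0.350 in PTC12 against 0.711 in TTF1 and 0.887 in TTF4. Its start in the table lies 52.5 kb from the nearest RefSeq start. Tmprss9, a membrane serine protease whose start lies 7.97 kb away, had 0.142, 0.313, 0.595 and 0.846 in the same order of lines. F2rl2, a receptor of the thrombin receptor family whose promoter is printed above, had 0.354 in PTC11 and 0.466 in PTC12 against 0.780 in TTF1 and 1 in TTF4. The CpG-rich window of the sugar transporter gene Slc50a1 had 0.107 in PTC11 and 0.20 in PTC12 against 0.475 in TTF1 and 0.943 in TTF4. As deposited its TTF lines differed by more than TTF1 and the PTC lines did. On the centred scale they did not, with 0.0964 in TTF1 and 0.294 in TTF4 against -0.265 in PTC11 and -0.282 in PTC12. The zinc finger gene Zfp879 had 0.135, 0.247, 0.483 and 0.732 in PTC11, PTC12, TTF1 and TTF4. Gm49355 and Gm10037 had at most 0.210 in the PTC lines and at least 0.391 in the TTF lines. Dkk3, a secreted protein of the Dickkopf family, had 69 CpGs, the most of these 10, with 0.259 in PTC11 and 0.248 in PTC12 against 0.583 in TTF1 and 0.913 in TTF4. In each of the 10 TTF4 was the highest line and the PTC lines were the lowest.

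In the PTC direction the widest gap among such genes was at Baalc, a cytoplasmic protein named after brain and acute leukaemia (chromosome 15, TSS at 38933144). Its fraction was 0.745 in PTC11 and 0.900 in PTC12 against 0.333 in TTF1 and 0.585 in TTF4, or 0.823 ± 0.110 for PTC against 0.459 ± 0.178 for TTF (SD, n = 2). Glrx2, a glutaredoxin of mitochondria, had 0.590, 1, 0.155 and 0.495 in PTC11, PTC12, TTF1 and TTF4, in a window that lies 23 kb from the RefSeq start and is 97.3% repeat-masked. Cacnb2, a beta subunit of voltage-gated calcium channels (chromosome 2, TSS at 14603088), was the clearest of them on the deposited scale, with 0.674 in PTC11 and 0.601 in PTC12 against 0.197 in TTF1 and 0.0306 in TTF4. It was the only one of these 10 where TTF4 was the lowest line, and its start lies 1.22 kb from that of RefSeq.

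Gm4027, printed above, had 0.817, 0.847, 0.454 and 0.674 in PTC11, PTC12, TTF1 and TTF4. Sh3rf2 had 0.750, 0.674, 0.283 and 0.417 in the same order. Slc15a5, of a family of peptide transporters, had 0.795 in PTC11 and 0.817 in PTC12 against 0.436 in TTF1 and 0.70 in TTF4. Gm13278 was at 0.0407 in TTF1 and between 0.376 and 0.476 in the other lines. At Gm6034, at A1cf, an RNA-binding partner of the APOBEC1 editing enzyme, and at the zinc finger gene Zfp951 the origins overlapped as deposited. A1cf, for example, had 0.610 in PTC11 and 0.632 in TTF4, beside 0.932 in PTC12 and 0.338 in TTF1. At these 3 genes the separation, though not the difference of the means, exists only relative to the mean of each line.

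**Figure D4:**
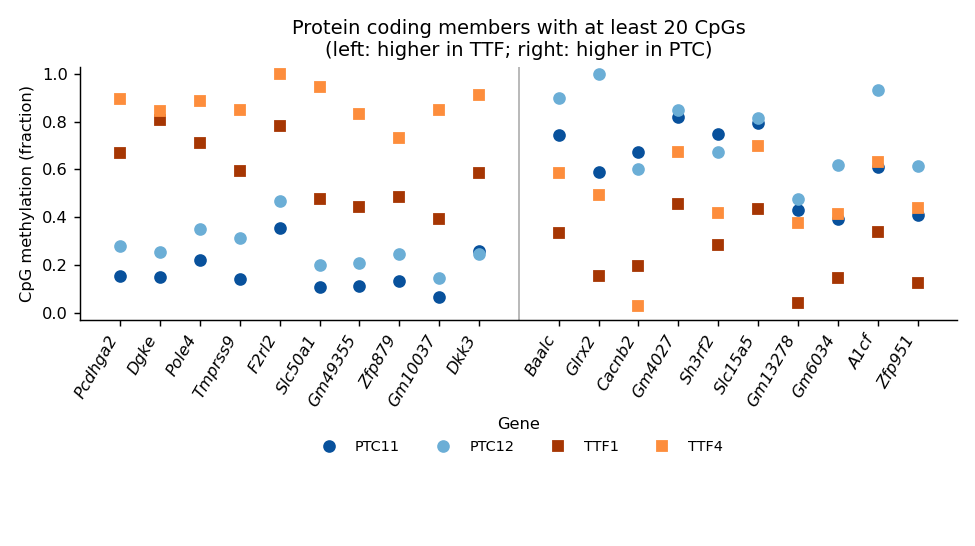
Deposited methylation fraction in PTC11, PTC12 (circles), TTF1 and TTF4 (squares) for the 10 protein coding members per direction with at least 20 CpGs and the widest gaps; each point is 1 line. On the left every PTC circle lies below every TTF square, which the rule and the line means fix in advance. On the right TTF4 overlaps a PTC line at Gm6034, A1cf and Zfp951.

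Members of other classes had gaps as wide or wider. Gm47132, a TEC gene on chromosome 12 with 30 CpGs and its TSS at 99377248, had the widest gap of all toward TTF, with 0.0715 in PTC11 and 0.0814 in PTC12 against 0.850 in TTF1 and 0.892 in TTF4. The means were 0.0764 ± 0.00697 and 0.871 ± 0.0297 (SD, n = 2), so that the lines of an origin lay close together. The processed pseudogene Gm10059 had 0.159, 0.145, 0.727 and 0.930 in PTC11, PTC12, TTF1 and TTF4, and the TEC gene Gm42429 had 0.237, 0.309, 0.786 and 0.975. The snoRNA gene Gm25962, the class I histocompatibility pseudogene H2-M6-ps and the processed pseudogene Gm31328 followed, with at most 0.233 in the PTC lines and at least 0.588 in the TTF lines.

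In the PTC direction Sfta3-ps had the widest gap in these classes among promoters with at least 20 CpGs, with 54 CpGs and fractions of 0.636 in PTC11 and 0.691 in PTC12 against 0.0832 in TTF1 and 0.221 in TTF4. The processed pseudogene Gm7816 had 0.533, 0.692, 0.0618 and 0 in PTC11, PTC12, TTF1 and TTF4. The miRNA gene Gm25068, the pseudogenes Gm7672 and Mrgprx3-ps and the long intergenic RNA gene Gm32647 were the others, with gaps from 0.378 to 0.457. Gm7672 had 0.0879 in TTF1 and 0.665 in TTF4, the most uneven pair among them.

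A stricter reading asks for a deposited fraction of at most 0.2 in both lines of 1 origin and at least 0.5 in both of the other. It was met by 17 members low in PTC and high in TTF, and by 5 low in TTF and high in PTC. Treml2, a receptor of myeloid and lymphoid cells, was among the former with 0.147 in PTC11 and 0.140 in PTC12 against 1 in TTF1 and 0.872 in TTF4. Olfr885, an olfactory receptor, had 0.192, 0.196, 0.667 and 0.884 in PTC11, PTC12, TTF1 and TTF4, and Psg29, a pregnancy-specific glycoprotein, had 0.170, 0.0667, 0.900 and 0.750. Their windows hold only 19, 10 and 3 CpGs. The antisense gene Gm16794 had 0.100 and 0 in the PTC lines and 0.623 and 0.987 in TTF1 and TTF4, and Gm47009, another antisense gene, had 0.169 and 0.167 against 0.512 and 0.839.

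Those 5 in the PTC direction were Cacnb2, Gm7816, the snRNA gene Gm23924 and the processed pseudogenes Gm45616 and Gm45617. The last pair start 20 bp apart on opposite strands and share all 4 values, 0.667 in PTC11 and 0.716 in PTC12 against 0.0741 in TTF1 and 0.111 in TTF4, and so are 1 observation. Gm23924 was at 0 in both TTF lines, at 0.538 in PTC11 and at 1 in PTC12. Pseudogenes of receptor and enzyme families, Vmn2r-ps120, Olfr439-ps1 and Cyp2c52-ps, were in the TTF direction together with Gm27189, Gm5363 and Gm34237, with 1 to 17 CpGs each.

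Gene families were looked at after their values were seen, and their counts stand beside 2.17% over all promoters. Of 1021 olfactory receptor genes, which are methylated and silent outside the nose, 24 were higher in TTF and 20 in PTC, a share of 4.31% with a median of 7 CpGs. The other pairings held 56 and 50 of them. Of 10 Klra genes, the Ly49 receptors of natural killer cells, 2 were members, both higher in PTC: Klra3 had 0.432 in PTC11 and 0.578 in PTC12 against 0 in TTF1 and 0.025 in TTF4, and Klra8 had 0.521, 0.761, 0.150 and 0.214 in the same order. Those 2 were 20% of a small family, and neither of the other pairings held a Klra gene. Of 68 protocadherin genes 4 were members, or 5.88%, each higher in TTF (Pcdhga2, Pcdhb1, Pcdhb18 and Pcdhga9). Either other pairing held 1. Of 96 cytochrome P450 genes 6 were members, or 6.25%, while the other pairings held 4 and 3. Of the 6, 4 were higher in TTF, among them Cyp27a1 of bile acid synthesis and Cyp11a1 of steroid synthesis, and 2 in PTC. No gene of the Hox clusters was a member out of 43 tested. Vomeronasal receptor genes held 11 members beside 10 and 13 in the other pairings, Zfp genes 3 beside 4 and 2, and keratin genes 3 beside 2 and 5. Defensin genes held 1 beside 2 and 3, and serpin genes 2 beside 3 and 4. Solute carrier genes held 10 beside 6 and 5, and immune C-type lectin genes 2 beside 0 and 1. No other family was counted.

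Of genes listed for the proximal tubule 1 of 56 was a member, or 1.79% beside 2.17% over all promoters, and each of the other pairings held 1 as well. It was Ttc36, higher in TTF with 0.209 in PTC11 and 0.443 in PTC12 against 0.640 in TTF1 and 0.887 in TTF4. None of 59 fibroblast genes, 40 pluripotency genes, 83 imprinted genes and 23 posterior Hox genes tested from their lists was a member. These lists are richer in CpG than the members, with medians of 63, 62.5, 69 and 97 CpGs for the last 4 and 27 for the proximal tubule. The imprinted list does not hold every gene at an imprinted locus, since 6 miRNA genes inside Sfmbt2, described below, were members. Of 65 germline genes 2 were members, the same number as in each of the other pairings. They were Piwil1, a partner of small RNAs in the testis, and Zp3, a protein of the egg coat. Zp3 had 0.0920 in PTC11 and 0.0250 in PTC12 against 0.353 in TTF1 and 0.862 in TTF4, and Piwil1 had 0.432, 0.607, 0.839 and 0.995.

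Of 440 genes on the kidney-associated list of the study, 3 were members, a share of 0.682%, and all 3 were higher in TTF. The list has a median of 84 CpGs, and over all promoters the share was 1.08% with 40 to 79 CpGs and 0.113% with 80 or more. Emp2, an epithelial membrane protein with 68 CpGs, had 0.166 in PTC11 and 0.234 in PTC12 against 0.407 in TTF1 and 0.862 in TTF4. Aqp4, a water channel, had 0.333, 0.538, 0.871 and 0.963 in PTC11, PTC12, TTF1 and TTF4, and Cyp4a14, a fatty acid hydroxylase, had 0.393, 0.430, 0.608 and 1. The other pairings held 2 genes of this list each. Of the 9 kidney genes that the study examined singly none was a member: Adamts16, with 0.282 in PTC11 and 0.460 in PTC12 against 0.781 in TTF1 and 0.782 in TTF4, had the widest gap, 0.155.

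RefSeq entries were at hand for 8 of the 46 miRNA genes among the members. For a miRNA gene the position in the table is the start of the annotated hairpin, not of its longer transcript. Those below, with the seed (bases 2 to 8) in capitals, were taken from RefSeq on GRCm38.p6 to show which miRNAs the values belong to. No seed is shared among them.
mmu-miR-182-5p (chr6:30165962-30165986, minus strand): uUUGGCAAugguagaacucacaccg
mmu-miR-196a-5p (chr11:96265187-96265208, plus strand): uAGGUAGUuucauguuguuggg
mmu-miR-453 (chr12:109735669-109735692, plus strand): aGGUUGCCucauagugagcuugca
mmu-miR-692 (chr13:74407121-74407141, plus strand): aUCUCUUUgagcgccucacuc
Mir182, of a cluster expressed in sensory cells, had 0.20 in PTC11 and 0.367 in PTC12 against 0.529 in TTF1 and 0.860 in TTF4. Mir196a-1 lies within the Hoxb cluster and was the reverse, with 0.522, 0.623, 0.268 and 0.184 in PTC11, PTC12, TTF1 and TTF4. Its TTF lines were both below its PTC lines as deposited. Mir453 had 0.343, 0.419, 0.622 and 0.865, and Mir692-3 had 0.0905, 0.0996, 0.299 and 0.873. The 46 miRNA members were 2.32% of 1984 miRNA genes tested, near the 2.17% over all promoters. The other pairings held 63 (3.18%) and 49 (2.47%). Of the 46 members 30 were higher in TTF and 16 in PTC, and with the median subtracted these counts were 21 and 26.

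Of the miRNA members, 6 lay inside 1 gene, Sfmbt2, on chromosome 2. Sfmbt2 is a Polycomb-group gene expressed from the paternal copy in the early embryo, and an intron of it holds a large cluster of repeated miRNA genes. The table gives values for 104 miRNA genes there, starting between 10465287 and 10518155 with a median distance of 294 bp, so that neighbouring windows overlap and are not separate observations. Gm22072, Mir669d, Gm25285, Gm24673, Gm22626 and Gm22166 were higher in TTF, and none of the 104 was higher in PTC. Mir669d had 0.380 in PTC11 and 0.258 in PTC12 against 0.630 in TTF1 and 0.915 in TTF4. Over the 104 the medians were 0.487 in PTC11 and 0.545 in PTC12 against 0.498 in TTF1 and 0.821 in TTF4, so that TTF1 lay with the PTC lines over the cluster as a whole. On the centred scale the TTF pair exceeded the PTC pair by any amount at 29 of the 104 and fell short of it at 14. The promoter of Sfmbt2 itself was at 0.142, 0.166, 0.240 and 0.226 in PTC11, PTC12, TTF1 and TTF4 and was not a member.

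**Figure D5:**
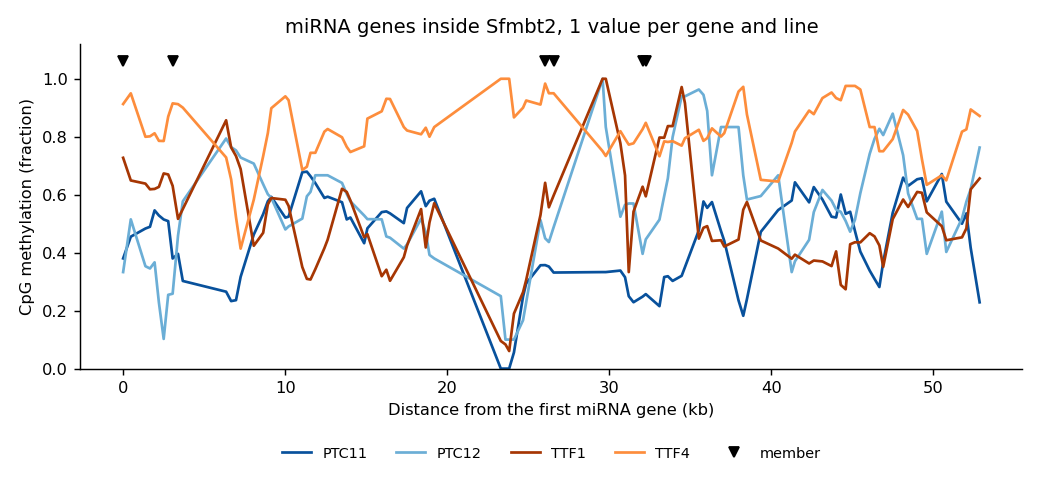
Deposited methylation fraction of the 104 miRNA genes inside Sfmbt2 along their distance from the first of them, in kb, 1 coloured line for each iPSC line; triangles mark the 6 members. TTF4 is the highest line over most of the 52.9 kb, while TTF1 crosses the PTC lines several times.

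The other locus with at least 3 members within 10 kb was a copy of mitochondrial DNA on chromosome 1, from 24612700 to 24613971. Gm10222, Gm28438 and Gm28437 are unprocessed pseudogenes of mitochondrial genes, and 98.0%, 98.0% and 98.8% of the 24-base words in their windows also occur in the mitochondrial genome. Gm28437 had 0.362 in PTC11 and 0.375 in PTC12 against 0.750 in TTF1 and 1 in TTF4. The adjacent copy Gm28439 had 0.507, 0.548, 0.841 and 0.980 in PTC11, PTC12, TTF1 and TTF4, with a gap of 0.195 just under the threshold. Gm28661 and Gm29216, farther along, were at 0 in TTF1 and did not separate, and Gm28661 had 0.750, 0.674, 0 and 0.970 in PTC11, PTC12, TTF1 and TTF4. The values of such copies are uncertain. Of all members 4 had any 24-base word of the mitochondrial genome, the other being Gm11410 with 16.4%.

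H3K4me3, which marks the start of active genes, was not used to choose the members. Of the members 571 are in the histone table, matched by gene identifier, and a value there is the mean RPKM, minus input, over the peaks from 2 kb before to 3 kb after the TSS. Some values are listed at 0, so that a listed value does not always stand for signal above input. H3K4me3 had a value in at least 1 line at 35.9% of members higher in TTF and at 16.5% of members higher in PTC, against 56.7% of all promoters matched in the same way. With fewer than 20 CpGs the shares were 6.92%, 8.05% and 7.40%, so that CpG-poor members differed little from other CpG-poor promoters. With at least 20 CpGs they were 62.3% and 39.7% against 76.4%. This last comparison is not one of like promoters, because the rule leaves out those unmethylated in all 4 lines. Nor is CpG number matched within the class. Of all members 280 had 20 to 39 CpGs and 11 had 80 or more, against 13571 and 9765 of the promoters tested.

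The presence of a value split by origin at 1 member. No member higher in TTF had H3K4me3 in both PTC lines and neither TTF line, against 0.106% of all promoters, and none had the reverse, against 0.178%. Among members higher in PTC, 1 had it in both TTF lines alone: Trim80, with 2.21 RPKM in TTF1 and 2.09 in TTF4 and fractions of 0.927, 1, 0.558 and 0.940 in PTC11, PTC12, TTF1 and TTF4. The number of members higher in TTF with a value was 43 in PTC11 and 100 in PTC12 against 98 in TTF1 and 21 in TTF4, which pairs PTC12 with TTF1. As shares these were 12.9%, 29.9%, 29.3% and 6.29%. In members higher in PTC the shares were 2.95%, 12.2%, 11.4% and 5.49% in the same order. Over all promoters they were 42.1%, 53.2%, 51.9% and 42.8%. PTC12 and TTF1 were the higher pair in each set, while TTF4 lay below PTC11 only in members higher in TTF.

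H3K4me3 had a value in all 4 lines at 22 members, 15 higher in TTF and 7 higher in PTC. In limma across 13709 genes 66 passed an adjusted p of 0.05 (0.481%), 31 higher in TTF (0.226%) and 35 lower (0.255%), and none of the 22 members did. The lowest unadjusted p in limma among these members were 0.0053 at Gm13238 and 0.0418 at Mir692-3. Mir692-3 was listed at 0 RPKM in PTC11 and both TTF lines. No excess over all genes is read from these 2. Without genes of a mean under 1 RPKM no gene passed in limma (adjusted), and 14 had an unadjusted p under 0.05. Among members higher in TTF the mark was lower in both TTF lines than in both PTC lines at 2 of 15, against 2.86% of all promoters with 4 values, and higher at 1, against 4.91%.

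The pair with less H3K4me3 were Gm13238 and Slc29a1. Slc29a1, a nucleoside transporter of the cell membrane, had 3.34 RPKM in PTC11 and 3.36 in PTC12 against 2.22 in TTF1 and 2.14 in TTF4. Its methylation was 0.0384, 0.0911, 0.250 and 0.534 in these lines. The difference in H3K4me3 was -0.45 ± 0.25 (SE) on the log2(RPKM + 1) scale and did not pass in limma (adjusted p = 1). Gm13238 had 3.40, 3.09, 1.57 and 2.02 RPKM in PTC11, PTC12, TTF1 and TTF4, a difference of -0.61 ± 0.22 (limma adjusted p = 0.726). Gm53 was the reverse, with 2.25 and 3.28 RPKM in the PTC lines and 5.28 and 3.53 in the TTF lines (limma adjusted p = 1), although its methylation was higher in TTF.

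Of the members higher in PTC, the mark was lower in both TTF lines at Glrx2, with 3.77 and 4.76 RPKM in the PTC lines and 3.32 and 3.30 in the TTF lines, and higher at Gm12676, where all lines lay between 3.30 and 4.26. The other members with 4 values overlapped between origins. Arsa, the lysosomal arylsulfatase, had fractions of 0.0648 in PTC11 and 0.163 in PTC12 against 0.358 in TTF1 and 0.554 in TTF4, with H3K4me3 from 2.90 to 4.69 RPKM. Slco2a1, a prostaglandin transporter, had 0.354, 0.285, 0.699 and 0.989 in PTC11, PTC12, TTF1 and TTF4, with 3.11, 2.71, 4.06 and 2.28 RPKM. Met, the receptor of hepatocyte growth factor, had 102 CpGs and was higher in PTC at the very edge of the threshold, with 0.194, 0.423, 0 and 0.173. Its H3K4me3 was 3.18 RPKM in PTC11 and 5.10 in PTC12 against 5.18 in TTF1 and 4.19 in TTF4, so the origins overlapped. At Cacnb2, low in methylation in both TTF lines, H3K4me3 was 2.62, 4.82, 6.34 and 3.92 RPKM and overlapped as well.

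H3K36me3, laid down over gene bodies by an enzyme that travels with RNA polymerase, had a value in all 4 lines at 140 members. In limma across 17039 genes 19 passed (0.112%), 4 higher in TTF (0.0235%) and 15 lower (0.0880%), and 1 of the 140 members was among them. This was the unprocessed pseudogene Gm6838, with 0.114 RPKM in PTC11 and 0.0442 in PTC12 against 0.662 in TTF1 and 1.10 in TTF4, a log2 difference of 0.79 ± 0.19 (SE; limma adjusted p = 0.0244). Its promoter had fractions of 0.229 and 0 in the PTC lines and 0.469 and 1 in the TTF lines. With PTC11 left out the adjusted p was 0.691, with PTC12 left out 1 and with TTF4 left out 0.871, and it was 1 without a trend, 0.998 after quantile normalization and 1 with absent values set to 0. The call therefore depends on these lines and settings. Pseudogenes share sequence with other copies, so that this value is uncertain.

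H3K36me3 was lower in both TTF lines than in both PTC lines at 5 of the 140 members and higher at 3. Over all promoters with 4 values it was lower at 403 and higher at 52 of 14820. Among the 5 was A1cf, higher in methylation in PTC. Its H3K36me3 was 1.71 RPKM in PTC11 and 2.22 in PTC12 against 0.676 in TTF1 and 1.22 in TTF4. The log2 difference of -0.61 ± 0.59 did not pass (limma adjusted p = 1). H3K27me3, a mark of repressed genes, had a value in any library at 2 of the 571 members, 1 in each direction, or 0.35% against 0.369% of all promoters. Both of its PTC libraries carry the name of PTC11, and it was not tested.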

How the data were processed

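Promoter methylation was read in 4 iPSC lines by nanopore sequencing, and H3K4me3, H3K36me3 and H3K27me3 by ChIP-seq in libraries of the same lines. The authors deposited the methylated fraction of CpGs per gene, made with minimap2 2.17-r941 on mm10 and Nanopolish, by their methods in windows of 300 bp sliding by 30 bp within 1000 bp of the TSS. The authors deposited ChIP-seq as RPKM minus input RPKM, averaged over MACS2 2.0.10 peaks near the TSS (H3K4me3, H3K27me3) or in the gene body (H3K36me3), after Bowtie2 2.1.0 and bedtools 2.17.0 per the submitters' processing notes. Neither file gives coverage or counts. Depth is therefore unknown, and intervals are left out. Of the per-sample columns 0 were left unused.

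Lines were centred on their mean over all values and promoters on chromosomes 1 to 19 separated by a gap of at least 0.2. CpGs, base content and masking were counted on the reference, and gene classes taken from GENCODE vM21, which matched 48680 of 48866 genes by identifier. The outer end of the gene on its strand stood for the TSS. H3K4me3 and H3K36me3 were tested with limma 3.58.1 (R 4.3.3) on log2(RPKM + 1) with a trend over genes valued in all 4 lines, Benjamini-Hochberg adjusted at 0.05. A difference on this scale understates that of low genes. The test was checked on simulated data, with a pass mark only at a spread far below that between these lines. That check does not speak for its power here. A p-value rests on the spread between 2 clones an origin, which limma draws toward the spread of genes with like RPKM. It is therefore not a measure of the clones at that gene alone. Python 3.11.15, numpy 2.4.6, pandas 2.3.3, pysam 0.24.0 and matplotlib 3.10.9 were used.

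Members and gene lists were chosen with earlier results of these data known. Genes were named by 4 rules: the 10 widest gaps per direction among protein coding genes with at least 20 CpGs; up to 6 of other classes; genes of the lists; and fractions of at most 0.2 in both lines of 1 origin and at least 0.5 in the other. The 3 members nearest to the threshold on either side and loci of at least 3 members within 10 kb were added. Families, the Sfmbt2 cluster and members described for a histone mark were picked after their values were seen. Alternatives were other centring, gap, CpG minimum, pseudocount, filter, normalization and left-out lines.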

Additional observations from a re-analysis of the deposited data

How the results depend on the processing

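No paired analysis was possible because the lines of the 2 origins share no replicate number within the methylation samples or the columns tested. Of the promoters higher in TTF and in PTC there were 1094 and 88 with no centring, 359 and 745 with the median subtracted, 2309 and 1756 with a gap of 0.1, 121 and 114 with a gap of 0.3, and 275 and 101 with at least 20 CpGs. With 1 line left out, which makes the gap easier to pass with fewer values, they ran from 2161 to 3973 and from 1867 to 3593. Centring on the promoters tested, quantile normalization, loci in place of promoters and adding the X and Y chromosomes kept both counts within 1.5 times. Quantile normalization turned the order of the directions, with 534 and 652. Of the 65 named members, whose direction the selection largely fixes, the difference moved by more than the spread between lines in 12 with no centring, 6 after quantile normalization, 1 with the median, and 10 to 14 with a line left out. Genes called for H3K4me3, 66 in all, were 102 with a pseudocount of 0.1 and 0 each with a mean of at least 1 RPKM, with absent values set to 0, without a trend and after quantile normalization in limma (14, 128, 3 and 317 at an unadjusted p under 0.05), and 59 to 108 with a line left out. Of members 1 was called with a pseudocount of 0.1, Mir692-3, listed at 0 RPKM in 3 of 4 lines, and 0 to 0 with a line left out. For H3K36me3 the 19 calls became 44 with a pseudocount of 0.1 and 0 each under the other 4 in limma (4, 24, 4 and 502 unadjusted), and 1 to 31 with a line left out. The 1 member called became 2 and 0 in the same settings, and 0 to 2 with a line left out. The cause of these changes was not tested. With 2 clones an origin, clone and origin cannot be told apart.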
